A study of Mus musculus with 8 samples.

Results

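The 30 genes described here mark the oligodendrocyte lineage and its myelin, and they were followed in the medial prefrontal cortex of mice from a study of Ino80e, which encodes part of INO80, a complex that moves nucleosomes. They are a list of gene names, made with earlier results of these data known: 4 precursor genes, 4 transcription factors of the whole lineage, 5 genes of newly formed oligodendrocytes and 17 genes of mature, myelinating cells. The deposited table lists 54446 Ensembl genes, and each of the 30 matched a single identifier. All 30 were among the 17636 genes that passed the low-count filter, with at least 131 reads in every library. Poly(A) RNA was sequenced in 4 libraries labelled Ino80e overexpression and 4 from mice labelled wild type. The series' design text describes a risk gene altered by an adeno-associated virus injected into this cortical area. The sources used here do not give the age, sex or strain of the mice, the promoter of the transgene, or whether wild-type mice received a control virus.

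Oligodendrocytes arise from proliferating precursor cells that carry the growth factor receptor Pdgfra and the proteoglycan Cspg4. Precursors that differentiate pass through a short newly formed stage, marked by Gpr17, Bcas1 and Enpp6, before they wrap axons with myelin, a compact membrane rich in lipid and in a few abundant proteins such as Mbp. The transcription factors Olig2 and Sox10 act throughout the lineage, and Myrf switches on the myelin genes. In bulk tissue, fewer oligodendrocytes and less RNA per oligodendrocyte cannot be told apart.

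Promoters of Mag, Cnp, Mobp and Sox8 are shown as a description, chosen after their matches were seen. Whether promoter sequence bears on the levels of these genes was not tested. RefSeq's promoter table (build GRCm38.p6) held a window for 20 of the 30 genes, and the window nearest the annotated start was used. The 250 bases before each start were searched on both strands for 4 words. ACAAAG is a core bound by Sox proteins, and so is its variant ACAATG. The word bound by Myrf was CTGGCAC, and CAGCTG stood for an E-box. ACAAAG was found in 5 of the 20 windows, those of Mobp, Mag, Cnp, Opalin and Gjb1, and in 16.5% of all 32851 windows. CTGGCAC was found in 2, Mag and Cnp, and in 4.19% of all windows. ACAATG was found in 3 (Olig2, Enpp6 and Ermn, with 10.7% of all windows), and CAGCTG in 2 (Lhfpl3 and Aspa, with 13% of all windows). A match describes these letters and is not a binding site. The first 200 bases of 4 windows follow, 5′ to 3′ on the gene's strand, with matches to the 4 words on either strand in capitals. Mag (minus strand, chr7:30914914-30915113) and Cnp (plus strand, chr11:100574689-100574888) are shown because each holds a Sox core and the Myrf word. Mobp (plus strand, chr9:120149492-120149691) is shown for its 6 matches to ACAAAG, all on the opposite strand, and Sox8 (minus strand, chr17:25570737-25570936), which had the lowest p of the 30 genes, holds none of the words in this window.
Mag: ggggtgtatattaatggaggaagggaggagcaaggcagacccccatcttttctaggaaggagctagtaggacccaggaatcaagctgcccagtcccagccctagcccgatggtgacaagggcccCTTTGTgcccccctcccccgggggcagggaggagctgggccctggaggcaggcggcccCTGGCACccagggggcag
Cnp: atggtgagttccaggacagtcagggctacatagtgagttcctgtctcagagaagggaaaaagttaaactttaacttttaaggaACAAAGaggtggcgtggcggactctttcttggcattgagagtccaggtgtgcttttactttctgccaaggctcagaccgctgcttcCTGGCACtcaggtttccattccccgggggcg
Mobp: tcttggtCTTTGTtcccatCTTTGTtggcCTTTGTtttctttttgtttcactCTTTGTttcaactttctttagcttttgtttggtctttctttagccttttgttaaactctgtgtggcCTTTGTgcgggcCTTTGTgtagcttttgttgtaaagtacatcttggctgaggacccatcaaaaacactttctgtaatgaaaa
Sox8: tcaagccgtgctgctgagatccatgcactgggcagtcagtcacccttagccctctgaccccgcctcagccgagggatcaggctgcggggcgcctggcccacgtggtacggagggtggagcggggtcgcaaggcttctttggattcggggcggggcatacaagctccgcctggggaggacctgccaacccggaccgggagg

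The libraries held 44762378 to 60490153 counts. Levels are CPM, counts in proportion to the scaled size of the library, and values in 4 libraries are given in the order of replicates 1 to 4. Ino80e stood at 74.1, 23.4, 23.3 and 45.04 CPM in the libraries labelled overexpression and at 22.3, 19.5, 25.5 and 20.7 CPM in wild type. Replicates 2 and 3 of the first group therefore lay inside the wild-type range, and the mean difference did not pass (log2 fold change 0.91, SE 0.42, edgeR adjusted p = 0.51), so directions below are those of the labels. GC-rich transcripts were higher in the libraries labelled overexpression: across 11326 genes of at least 5 CPM, Spearman's rho between fold change and transcript GC content was 0.64, a description across genes, which are not independent replicates. Every fold change is therefore also given, where it matters, from a fit with each library's GC trend as an offset. Wild-type replicate 4 carried the most choroid plexus RNA: the transthyretin gene Ttr was at 982 CPM there. Ttr was at 90.8 CPM in wild-type replicate 3, at 90.6 CPM in replicate 3 labelled overexpression and at 2.41 to 8.02 CPM in the rest. Nothing in the labels ties a library to its own mouse. The p-values therefore reflect only the variation among these libraries, which may be technical.

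None of the 30 passed an adjusted p under 0.05 in edgeR's quasi-likelihood test over all genes, a threshold that 0.034% of genes tested passed. The lowest adjusted p was 0.32, for Sox8, and 29 of the 30 had a log2 fold change within 0.2 of 0. Log2 fold changes, overexpression minus wild type, ran from -0.16 for Bcas1 to 0.31 for Sox8, with 14 above 0 and 16 below. With the GC offset 10 of the 30 were above 0, beside 8657 of all 17636 genes tested. Without that offset, 1 gene was higher (Sox8) and 0 were lower at an unadjusted p under 0.05. Of all genes tested, 5.24% were higher and 5.43% lower there. For none of the 30 did the 4 libraries of one group lie wholly above or below the other 4, as 2.82% of all genes did in the higher and 3.02% in the lower direction. The median log2 fold change was -0.03 for the 17 mature genes, -0.09 for the 5 newly formed genes, 0.00 for the 4 precursor genes and 0.09 for the 4 transcription factors, which became -0.02 with the GC offset, against 0.00 for all genes tested. With only replicates 1 and 4 of the libraries labelled overexpression, those with raised Ino80e, the mature median was -0.14 and 16 of the 17 were below 0, among them Mal at -0.33 (SE 0.18), Ermn at -0.31 (SE 0.14) and Ugt8a at -0.25 (SE 0.12). None of the 30 passed the adjusted threshold in that fit either (lowest edgeR adjusted p = 0.60, for Sox8). Its low mature values came from replicate 1. The mean over the 17 genes of log2 CPM minus the wild-type mean was -0.37 in replicate 1 and 0.08 in replicate 4. That fit had no GC offset. Over all libraries without the GC offset, Mal stood at -0.15, Ermn at -0.15 and Ugt8a at -0.13. With the GC offset over all libraries, Mal stood at -0.14, Ermn at -0.03 and Ugt8a at -0.02. On GRCm38, Sox8 (ENSMUSG00000024176) lies on the minus strand at chr17:25565892-25570686, Bcas1 (ENSMUSG00000013523) on the minus strand at chr2:170346991-170427845, Pdgfra (ENSMUSG00000029231) on the plus strand at chr5:75152292-75198215 and Ugt8a (ENSMUSG00000032854) on the minus strand at chr3:125865271-125938619, and all 4 counts are over exons.

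**Figure D1:**
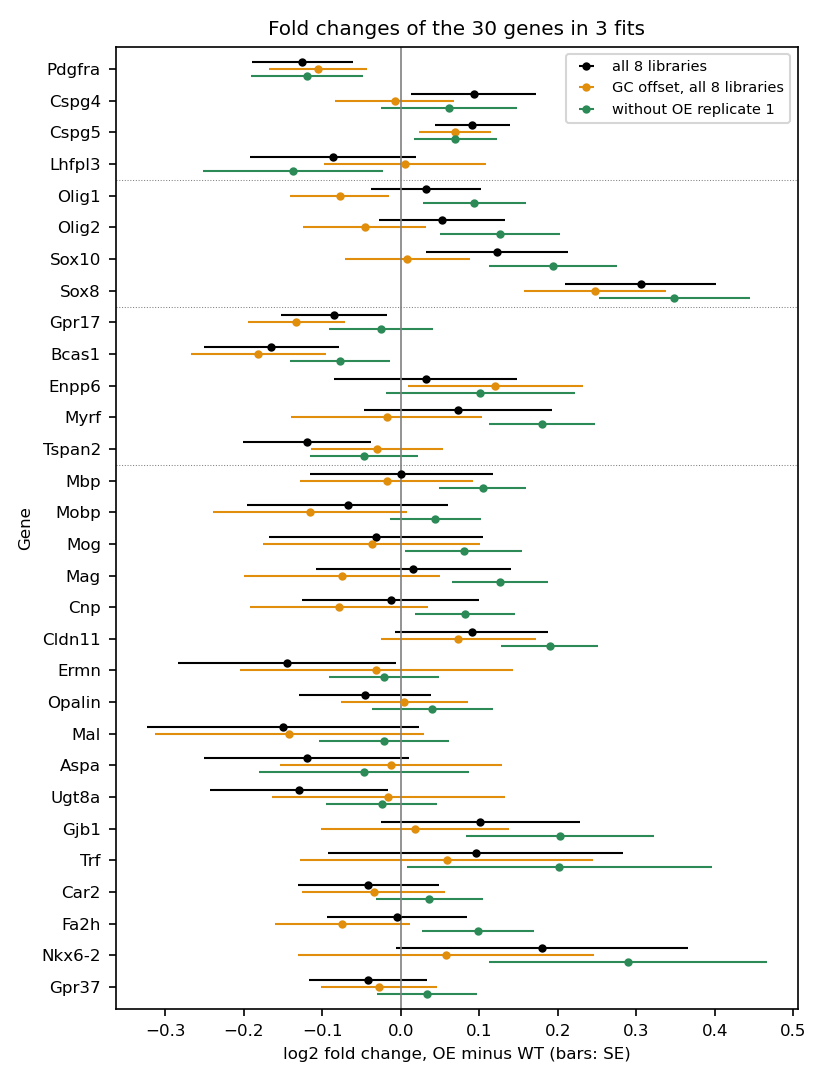
Log2 fold change (overexpression minus wild type, x axis) of the 30 genes (y axis), with SE bars, from 3 fits: all 8 libraries, all 8 with the GC offset, and without replicate 1 of the libraries labelled overexpression. With all 8 libraries every gene but Sox8 lies within 0.2 of 0, and all 17 mature genes lie further right without replicate 1.

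Within the libraries labelled overexpression, replicate 1 stood apart in the mature genes. It had the lowest level of that group for all 17 of them and the lowest of all 8 libraries for 16, the exception being Nkx6-2, where it was the lowest of its group but wild-type replicate 2 was lower. Across all 17636 genes, replicate 1 was the lowest library for 12.8%. Its level was between 0.649 (Mal) and 0.866 (Nkx6-2) times the wild-type mean. The mean shift, which is the mean over a stage's genes of log2 CPM minus the gene's wild-type mean, was -0.37 for the mature genes in replicate 1 and 0.16, 0.02 and 0.08 in replicates 2, 3 and 4. The wild-type shifts were 0.03, -0.18, 0.01 and 0.15. The highest of these was that of the library with the most choroid plexus RNA, and the part of that RNA in it was not tested. Wild-type replicate 2 was the lowest wild-type library for 16 of the 17 genes, and replicate 4 the highest for 15.

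The low level in replicate 1 was not shared by every stage. The mean shift of the newly formed genes was -0.32 there, against 0.05, -0.08 and 0.12 in the other 3 libraries of its group, and replicate 1 was the lowest of all 8 libraries for 4 of the 5. For the transcription factors it was -0.07 against 0.17, 0.21 and 0.20, and wild-type replicate 2 was lower still at -0.17. With the GC trend removed these 5 values were -0.17, 0.11, 0.08, 0.10 and -0.11. On average the precursor genes were not low in that library: their shift was 0.07, against 0.11, -0.08 and -0.12. Replicate 1 was the lowest library of its group for 0 of 4. Single genes differed. Pdgfra, at 66.6 CPM in replicate 1, lay below every wild-type library (lowest 68.7 CPM). Cspg4, Cspg5 and Lhfpl3 were at 1.14, 1.11 and 1.04 times their wild-type means there. These are values of 1 library and differences between stages were not tested. With the GC trend removed, the mature shift in replicate 1 was -0.38 and those of the other 7 libraries were -0.18 to 0.16.

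Other measures of replicate 1 stood as follows. It held the highest Ino80e level, 74.1 CPM, while replicate 4, the next highest at 45.04 CPM, had a mature shift of 0.08. Summed levels of 6 neuron markers in replicate 1 were 1.03 times the wild-type mean, of 6 astrocyte markers 1.04 times and of 6 endothelial and mural markers 0.992 times. Summed levels of 6 microglia markers were 1.20 times the wild-type mean in replicate 1 and 1.21 times in replicate 2, where myelin genes were not low. Single microglia markers differed in replicate 1. Cx3cr1, Tmem119, Csf1r and C1qa were above every wild-type library, and Aif1 was within the wild-type range. P2ry12, at 29.2 CPM, was below every wild-type library (lowest 29.4 CPM). The 17 mature genes took 0.369% of the counts in replicate 1 and 0.420% to 0.535% in the other libraries. What made this library differ was not tested.

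**Figure D2:**
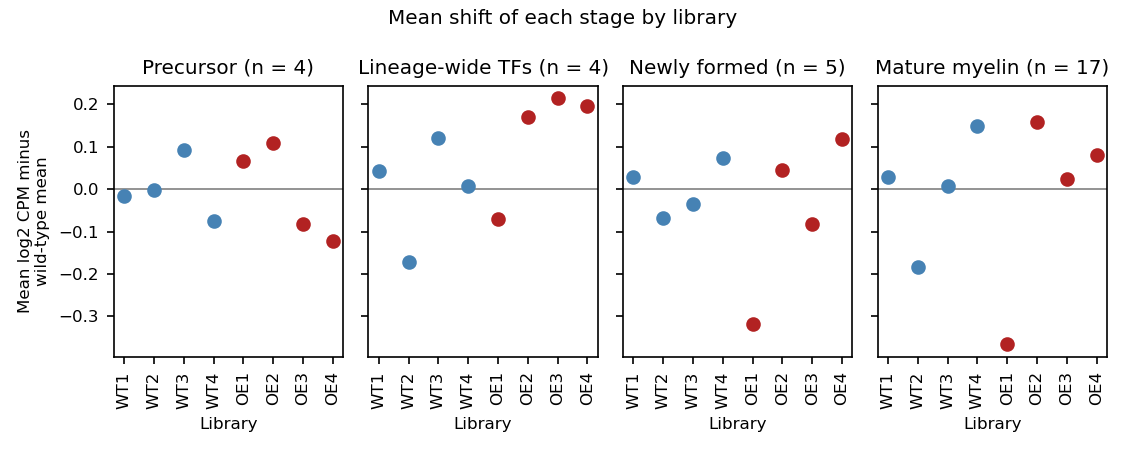
Mean log2 CPM minus the wild-type mean (y axis) of the genes of each stage in each library (x axis), wild type in blue and overexpression in red, 1 point per library. Replicate 1 labelled overexpression is lowest in the mature panel at -0.37 and in the newly formed panel at -0.32, and stands at 0.07 in the precursor panel.

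Among the structural proteins of compact myelin, Mbp, whose protein holds the inner membrane faces together, was at 2049, 2795, 2784 and 2915 CPM in the libraries labelled overexpression and at 2626, 2365, 2750.1 and 2797 CPM in wild type. Replicate 1 lay below every other library, and the other 3 lay within or just above the wild-type range. The group means were 2636 ± 396 and 2635 ± 194 CPM (SD, n = 4 each). The log2 fold change was 0.00 (SE 0.12, edgeR adjusted p = 0.998, with an approximate 95% interval of -0.28 to 0.29 from the SE and 6 residual degrees of freedom). Mobp, another abundant protein of compact myelin, was at 591, 854, 803 and 868 CPM against 822, 731, 856 and 857 CPM, with the same low library (log2 -0.07, SE 0.13). With the GC offset the fold change of Mobp was -0.12. Mal, a lipid raft protein of myelin, was at 137, 235, 191 and 198 CPM against 216, 182, 211 and 236 CPM (log2 -0.15, SE 0.17). Cldn11, which seals the myelin layers with tight junctions, was at 83.97, 124, 109.6 and 109.9 CPM against 102, 92.8, 101 and 105 CPM. Its 3 libraries other than replicate 1 lay above every wild-type library, and the fold change over all 4 was 0.09 (SE 0.098, edgeR adjusted p = 0.77).

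Genes of the outer and axon-facing myelin surfaces had similar levels in the 2 groups. Mag, an adhesion molecule facing the axon, was at 159, 227, 215 and 236 CPM against 213, 184, 213 and 218 CPM in wild type (log2 0.02, SE 0.12, edgeR adjusted p = 0.98). Mog, on the outermost myelin surface, was at 43.3, 66.5, 55.9 and 62.8 CPM against 60.4, 50.6, 58.6 and 63.9 CPM (log2 -0.03, SE 0.14). Both had replicate 1 below all wild-type libraries and the other 3 spread through or above the wild-type range. Cnp, an enzyme of the non-compacted myelin channels, was at 311, 451, 396 and 404 CPM against 421, 349, 391 and 414 CPM. Exons of Dnajc7 overlap those of Cnp from the other strand, and the level of Cnp is uncertain if reads were counted without strand. Gjb1, the connexin of oligodendrocyte gap junctions, was at 10.6 to 15.3 CPM and 10.8 to 15.2 CPM, and Ermn, a cytoskeletal protein of late oligodendrocytes, at 35.8, 55.8, 52.8 and 51.9 CPM against 55.3, 50.3, 50.4 and 61.2 CPM. Opalin, a membrane protein of mature oligodendrocytes, was at 22.1, 30.4, 28.7 and 27.3 CPM against 26.4, 28.3, 28.4 and 29.0 CPM.

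The galactolipid and acetate genes Ugt8a, Fa2h and Aspa also had replicate 1 as their lowest library. Ugt8a, which makes the galactolipids of myelin, was at 40.8, 59.8, 54.1 and 56.3 CPM against 61.97, 52.6, 53.3 and 62.9 CPM in wild type. It had the lowest p of the mature genes, and its log2 fold change of -0.13 (SE 0.11, edgeR adjusted p = 0.71) was -0.02 with the GC offset. The transcript of Ugt8a has a GC content of 38.0%, as do those of Ermn at 38.0% and Aspa at 38.5%. Those fold changes moved alike, from -0.15 to -0.03 for Ermn and from -0.12 to -0.01 for Aspa, the enzyme that frees acetate from N-acetylaspartate for lipid synthesis. Aspa was at 10.3, 14.7, 10.96 and 12.9 CPM against 15.7, 10.4, 12.3 and 14.6 CPM. Fa2h, which hydroxylates the fatty acids of those lipids, was at 26.7, 36.7, 35.8 and 37.8 CPM against 35.3, 31.7, 34.6 and 35.9 CPM, a log2 fold change of 0.00 (SE 0.089). The carbonic anhydrase gene Car2 was at 126 to 172 CPM against 137 to 173 CPM, and the orphan receptor gene Gpr37 at 76.8 to 104 CPM against 87.3 to 102 CPM. The homeobox gene Nkx6-2 was low, at 6.29, 10.1, 8.86 and 7.69 CPM against 7.51, 4.72, 7.28 and 9.55 CPM (log2 0.18, SE 0.19, and 0.06 with the GC offset). The transferrin gene Trf was at 2.71 to 4.19 CPM against 2.80 to 3.96 CPM. Trf shares exons with another annotated gene on its own strand, Gm20425, so reads of either may have been dropped or divided and its level is uncertain.

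Relative to exon length, Mbp was also the highest of the 30 in wild type, at 311 RPKM (reads scaled to both exon length and library size), followed by Mobp at 119, Cnp at 108, Mal at 76.1 and Car2 at 64.3 RPKM. Trf at 0.993, Enpp6 at 1.74 and Aspa at 2.23 RPKM were the lowest. The wild-type ranges of Mobp and Cnp, neighbours in that order, overlapped. Of the transcription factors, Olig1 stood highest at 51.9 RPKM and Olig2 lowest at 11.3 RPKM.

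**Figure D3:**
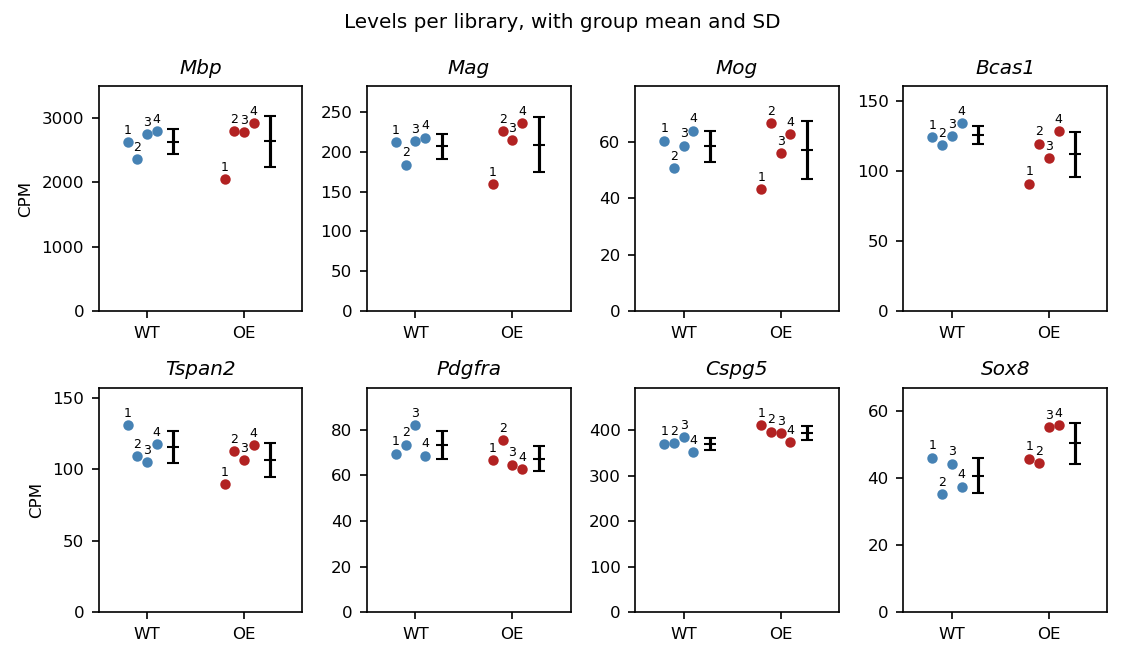
Levels (y axis, CPM from 0) of 8 genes in each library, wild type (WT, blue) and labelled overexpression (OE, red), with replicate numbers at the points and group mean ± SD at the right of each group. Replicate 1 labelled overexpression is the lowest point for Mbp, Mag, Mog, Bcas1 and Tspan2, but not for Pdgfra, Cspg5 or Sox8.

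Newly formed genes had fold changes from -0.16 to 0.07, and 3 of the 5 were below 0. Bcas1, a protein of early myelinating cells, was at 90.8, 119, 109 and 128 CPM in the libraries labelled overexpression and at 124, 118, 125 and 134 CPM in wild type. Replicates 1 and 3 lay below every wild-type library and the groups overlapped. Its log2 fold change was -0.16 (SE 0.086, edgeR adjusted p = 0.52), and without replicate 1 it was -0.08 (SE 0.063). With the GC offset over all libraries it was -0.18 (SE 0.086). Tspan2, a tetraspanin of differentiating oligodendrocytes, was at 89.9, 113, 106 and 117 CPM against 131, 109, 105 and 117 CPM, a fold change of -0.12 (SE 0.082) that was -0.03 with the GC offset. Gpr17, the receptor that marks committed precursors and restrains their maturation, was at 44.98, 53.4, 51.2 and 56.7 CPM against 51.7, 51.9, 59.97 and 55.2 CPM (log2 -0.09, SE 0.068). With the GC offset Gpr17 stood at -0.13 (unadjusted p = 0.042, edgeR adjusted p = 0.97) and was the only member lower at that unadjusted threshold, as 2.43% of all genes were. Myrf was at 56.2, 75.9, 75.9 and 83.98 CPM against 66.7, 62.1, 71.5 and 77.2 CPM (log2 0.07, SE 0.12), and Enpp6, a choline phosphodiesterase, at 9.69 to 13.01 CPM against 9.56 to 11.9 CPM (log2 0.03, SE 0.12). Gpr17, Bcas1 and Tspan2 overlap exons of genes on the opposite strand.

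Precursor genes showed small differences in either direction. Pdgfra was at 66.6, 75.3, 64.7 and 62.8 CPM in the libraries labelled overexpression and at 69.5, 73.4, 82.1 and 68.7 CPM in wild type. Of the 4 libraries labelled overexpression, 3 lay below every wild-type library, and the log2 fold change was -0.13 (SE 0.065, edgeR adjusted p = 0.50). Cspg5, a brain proteoglycan that astrocytes and neurons also make, was at 411, 396, 392 and 373 CPM against 369.6, 372, 384 and 351 CPM. Here 3 of the libraries labelled overexpression lay above all 4 wild-type ones (log2 0.09, SE 0.047, edgeR adjusted p = 0.50). Cspg4, the NG2 proteoglycan that pericytes also carry, was at 37.5, 38.1, 33.5 and 31.6 CPM against 33.9, 31.9, 37.3 and 28.8 CPM, and its fold change of 0.09 became -0.01 with the GC offset. Lhfpl3 was at 9.80 to 12.5 CPM against 11.6 to 12.3 CPM (log2 -0.09, SE 0.11).

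Sox8, a transcription factor of the lineage that astrocytes also express, had the lowest p of the 30 genes. It was at 45.8, 44.5, 55.2 and 55.8 CPM in the libraries labelled overexpression and at 46.04, 35.1, 44.3 and 37.5 CPM in wild type. Replicates 3 and 4 lay above every wild-type library, replicates 1 and 2 lay below the highest wild-type library, and the 2 replicates with raised Ino80e (1 and 4) were at 45.8 and 55.8 CPM. The means were 50.3 ± 6.02 and 40.7 ± 5.26 CPM (SD, n = 4 each). The log2 fold change was 0.31 (SE 0.096, unadjusted p = 0.0067, edgeR adjusted p = 0.32). With the GC offset it was 0.25 (SE 0.090, edgeR adjusted p = 0.91), and it remained the only higher gene of the 30 at an unadjusted p under 0.05, as 2.69% of all genes were. Sox8 passed the adjusted threshold only when low-count genes were kept in the fit (log2 0.31, SE 0.066, edgeR adjusted p = 0.0039), a setting in which 0.277% of 29946 genes passed. Over the 20 alternatives its adjusted p ran from 0.0039 to 0.91. Sox8 overlaps exons of 2810468N07Rik on the opposite strand. The log2 fold change of 2810468N07Rik was -0.0044 (SE 0.12). Sox10 was at 40.1, 50.6, 51.4 and 47.1 CPM against 41.4, 37.1, 50.01 and 45.3 CPM (log2 0.12, SE 0.091, and 0.01 with the GC offset). Olig1 was at 99.9, 122, 116 and 122 CPM against 118, 98.5, 122 and 110.4 CPM (log2 0.03, and -0.08 with the GC offset), and Olig2 at 24.8, 32.7, 30.6 and 30.04 CPM against 27.9, 26.8, 28.7 and 30.4 CPM (log2 0.05, and -0.05 with the GC offset).

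**Figure D4:**
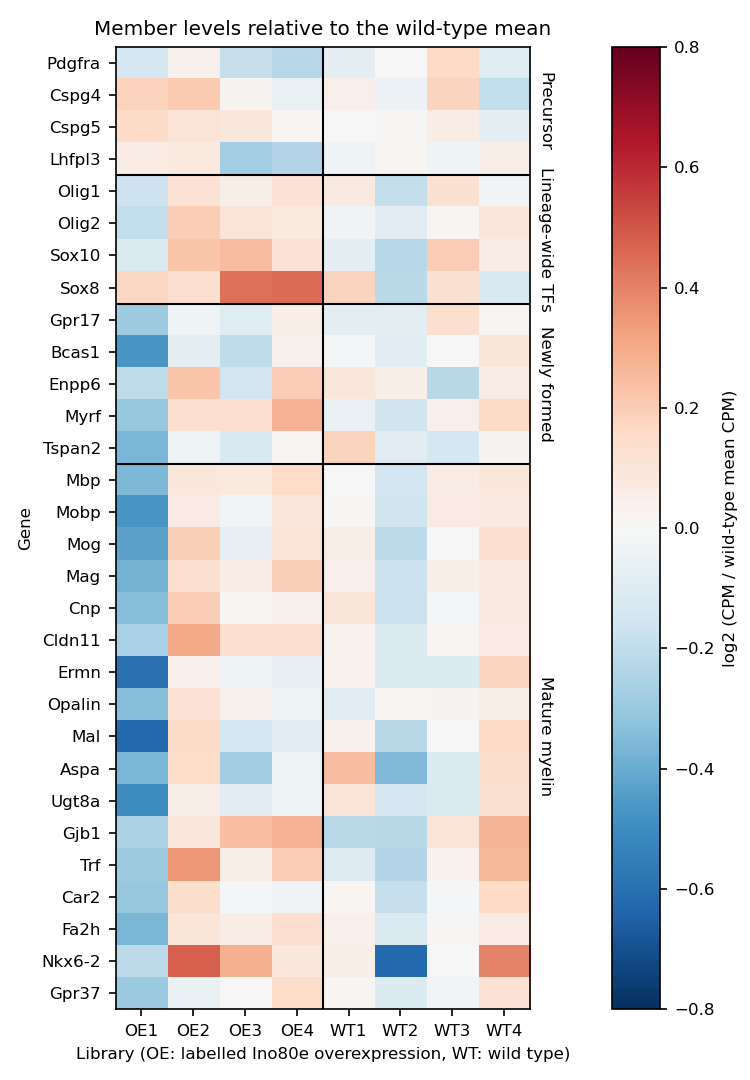
Level of each of the 30 genes (rows, in 4 stages) in each library (columns), as log2 of CPM over the wild-type mean, in a colour scale from -0.8 to 0.8. The OE1 column is blue through the mature and most newly formed genes and not through the precursor genes, and WT2 is paler blue in the mature genes.

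Without replicate 1 of the libraries labelled overexpression, the median log2 fold change of the mature genes was 0.08 in place of -0.03, and 13 of the 17 were above 0 in place of 6. Over all genes tested the median was 0.00 in that fit. At an unadjusted p under 0.05, 4 of the 30 genes were then higher and 0 lower, where 4.43% of all genes were higher and 5.32% lower. They were Sox8 (log2 0.35, SE 0.096), Sox10 (log2 0.19, SE 0.081), Cldn11 (log2 0.19, SE 0.062) and Myrf (log2 0.18, SE 0.067). None passed the adjusted threshold (lowest edgeR adjusted p = 0.36, for Sox8). This fit had no GC offset. Over all libraries without the GC offset, Sox8 was at 0.31, Cldn11 at 0.09, Sox10 at 0.12 and Myrf at 0.07. With the GC offset over all libraries, Sox8 was at 0.25, Cldn11 at 0.07, Sox10 at 0.01 and Myrf at -0.02. Replicate 1 was singled out as the lowest library of its group for all 17 mature genes. Leaving it out therefore had to raise their fold changes, and the count of higher genes cannot be read as a result. With wild-type replicate 2 also left out, a choice made after seeing the data, the mature median was 0.02. In that fit 2 of the 30 genes, Sox8 and Cldn11, were higher at an unadjusted p under 0.05 and 0 were lower, where 2.94% of all genes were higher and 3.58% lower.

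The genes whose levels most resembled the mature genes between libraries of a group were ranked by Pearson's r between group-centred log2 CPM of each of 11302 other genes of at least 5 CPM and the mean of the 17, over 8 libraries that share their preparation. Of the 5 highest, 4 are given as a description, with no test. Unc5b, a netrin receptor, had r = 0.98 (Spearman's rho 0.95), Mchr1, a neuropeptide receptor, r = 0.98 (0.88), Commd4 r = 0.97 (0.95) and Mrps12, a mitochondrial ribosomal protein, r = 0.97 (0.95). Among the 17 genes themselves r with their own mean, which includes each gene, ran from 0.78 for Aspa to 0.98 for Mog. Unc5b was at 41.0, 56.9, 52.5 and 54.6 CPM against 50.97, 42.8, 51.2 and 58.3 CPM. Replicate 1 was the lowest library for Unc5b, and without it r was 0.98.

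Further genes of the pathway came from 6 lists with 151 tested genes of 152 listed. In none did a gene pass the adjusted threshold, and the lowest adjusted p was 0.31. At an unadjusted p under 0.05, 10 of the 151 were higher and 12 lower, which is 6.62% and 7.95%, beside the 5.24% and 5.43% of all genes. With the GC offset, 4 were higher and 4 lower, which is 2.65% each, beside 2.69% and 2.43% of all genes. Of 34 other myelin genes, 2 were lower and 0 higher at that threshold, and the median was -0.02, which became 0.05 without replicate 1. That library was the lowest of 8 for 23 of the 34. Nipal4 was at 3.58, 3.39, 4.18 and 3.42 CPM against 4.74, 4.59, 4.52 and 5.74 CPM, with no overlap between the groups (log2 -0.43, SE 0.16, edgeR adjusted p = 0.36, and -0.44 with the GC offset). Omg, a myelin glycoprotein that inhibits axon growth, stood at log2 -0.11 (SE 0.052) and at -0.02 with the GC offset, and Apod, a lipid carrier, at 0.10 (SE 0.051) and at 0.13 with the GC offset (unadjusted p = 0.015). With that offset 1 of the 34 was higher and 1 lower at the unadjusted threshold.

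Of 20 other precursor genes, 1 was higher and 2 lower at the unadjusted threshold (median -0.01). Of all genes, 5.24% were higher and 5.43% lower. With the GC offset, 1 of the 20 was higher and 1 lower. Replicate 1 labelled overexpression was the lowest library for 5 of the 20 (25%, beside 12.8% of all genes). Their mean shift was -0.04 there and -0.05 in wild-type replicate 4. The proteoglycan gene Bcan was at log2 0.16 (SE 0.054) and 0.05 with the GC offset, the tenascin gene Tnr at -0.16 (SE 0.056) and -0.13, and Tmem100 at -0.31 (SE 0.13) and -0.23. Of 16 other newly formed genes, 1 was higher at the unadjusted threshold (Kif19a, log2 0.40, SE 0.19) and 1 lower (Pik3r3, log2 -0.16, SE 0.061), with a median of -0.02. With the GC offset neither passed, at 0.30 for Kif19a (unadjusted p = 0.14) and -0.09 for Pik3r3 (unadjusted p = 0.12). Replicate 1 labelled overexpression was the lowest library for 5 of these 16 genes, and their mean shift was -0.16 there and -0.17 in replicate 3. The noncoding RNA 9630013A20Rik, from a gene of newly formed oligodendrocytes, stood at log2 -0.64 (SE 0.36) and did not pass.

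Of 24 tested regulators of the lineage, 1 was higher and 3 lower at the unadjusted threshold (median 0.00). Of all genes, 5.24% were higher and 5.43% lower at that threshold, and 2.69% and 2.43% with the GC offset. With that offset, 1 of the 24 regulators was higher and 1 lower. Zfp24, a zinc finger factor needed for myelination, was at 31.2, 34.9, 34.7 and 32.5 CPM against 41.4, 40.3, 38.0 and 37.3 CPM, with no overlap (log2 -0.23, SE 0.065, edgeR adjusted p = 0.31, and -0.14 with the GC offset). The histone deacetylase gene Hdac2 stood at log2 -0.20 (SE 0.060) and at -0.11 with the GC offset, and St18 at -0.34 (SE 0.14) and -0.25. Of 22 cholesterol synthesis genes, which supply the main lipid of myelin, 3 were higher and 1 lower (median 0.01). With the GC offset, 1 of the 22 was higher and 0 were lower. Replicate 1 labelled overexpression was the lowest library for 1 of the 22, and their mean shift there was 0.04. Hmgcs1, which makes an early precursor of cholesterol, stood at log2 -0.13 (SE 0.056) and Tm7sf2, a sterol reductase gene, at 0.24 (SE 0.10), and with the GC offset they were at -0.05 and 0.22. Of 35 genes of axon to glia signalling and growth factors, 4 were higher and 3 lower (median 0.00). With the GC offset, 0 of the 35 were higher and 1 was lower. The neurotrophin gene Bdnf stood at log2 -0.29 (SE 0.095), the kinase gene Mtor at 0.12 (SE 0.046) and Rtn4, which encodes Nogo, at -0.13 (SE 0.049). With the GC offset these were -0.19, 0.06 and -0.08.

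Of markers of Schwann cells, which make the myelin of peripheral nerve, Pmp2 was at 0 in 7 of the 8 libraries and at 0.043 CPM in wild-type replicate 2. Of the 6 markers searched, Pou3f1 and Egr2 are also made by cortical neurons. The summed level of the 6 was 30.8 to 48.1 CPM in the libraries labelled overexpression and 39.6 to 41.9 CPM in wild type, most of it Pou3f1.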

How the data were processed

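Per the labels' protocols, poly(A) RNA was made into strand-specific libraries by dUTP marking. The authors deposited raw read counts per Ensembl gene, 1 column per library, made with Trimmomatic 0.39, STAR 2.7.10 and featureCounts 2.0.3 and builds mm10 and GRCm38, per the submitters' processing notes, which give no role or order. The strand setting, annotation release and handling of multiply mapped reads: not given in the sources used here. Counts of the 12 members that share exon positions with another gene are uncertain.

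Symbols, positions and exon lengths came from GENCODE M21 (GRCm38): 54409 identifiers had a symbol and 37 had none. GC content is that of the longest transcript. Genes were filtered with filterByExpr, scaled by TMM and tested with edgeR 4.0.16 (R 4.3.3), robust quasi-likelihood, overexpression against wild type, with Benjamini-Hochberg adjustment over all genes. Mean shifts used log2 CPM with a prior count of 2. The GC offset is a spline with 5 degrees of freedom of log2 CPM on GC content in each library. Alternatives were RLE and upper-quartile scaling, other filters, DESeq2 1.42.0, limma-voom (limma 3.58.1), a replicate block and leaving libraries out. No library was a copy of another (chi-square per degree of freedom of at least 11.7 for any pair). For members with many reads counting error is small, and the spread between libraries sets the precision. It is a larger part of the spread for members with few reads, such as Trf (131 to 206 reads) and Lhfpl3 (509 to 642 reads).

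Members, lists and tests were chosen with earlier results of these data known. Full values are given for the lowest p in each stage (5 mature genes, 3 in each other stage) and for Mbp, and up to 3 genes per further list. Values of other members were added so that all 30 are covered, and the printed promoters were chosen after their matches were seen. A few genes that this rule would name are not reported here.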

Additional observations from a re-analysis of the deposited data

Results flagged for a closer look

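Across 30 genes and 4 stage means in each of 2 groups, 68 sets of 4 libraries were examined for a library far from the other 3, and 4 were found, where chance gives about 1 in 20. Replicate 1 of the libraries labelled overexpression was low for Mbp, at 2049 CPM against 2784 to 2915 CPM in the other 3. The same library was low for the mean of the 4 transcription factors, with a shift of -0.071 against 0.17 to 0.21. Wild-type replicate 2 was low for Mag, at 184 CPM against 213 to 218 CPM in the other wild-type libraries. Wild-type replicate 3 was low for Enpp6, at 9.56 CPM against 11.5 to 11.9 CPM. The mean shifts of the mature and newly formed genes were not among the 4. Replicate 1 labelled overexpression was found for no mature gene other than Mbp.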

How the results depend on the processing

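Of 30 genes, Sox8 passed the adjusted threshold in 1 of 20 alternatives, with low-count genes kept (log2 0.31, edgeR adjusted p = 0.0039), and no other gene passed in any. The count over all genes, 6 as reported, was 83 with low-count genes kept, 28 by DESeq2 (which gave an adjusted p for 7037 genes and 24 of the 30), 2 by limma-voom, 2 without robust estimation, 1 without replicates 2 and 3 labelled overexpression, and 1 without overexpression replicate 1 and wild-type replicate 2 (added after seeing the data). Leaving out 1 library at a time gave 1 to 8. With the replicate block the count was 1, and 2 with the block and the GC offset. Same-numbered libraries showed no shared deviation (r from -0.071 to 0.077 over 4 pairs, and 1 of 8 libraries correlated best with its own number). The labels do not say whether the numbers pair libraries, and 4 pairs are too few to exclude it.

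Stage medians moved by less than the spread between libraries in all 20 alternatives, from -0.14 to 0.08 for mature, -0.13 to -0.02 for newly formed, -0.04 to 0.04 for precursor genes and -0.02 to 0.16 for the transcription factors. That spread is the SD between libraries of a group of the stage's mean log2 CPM. For the mature genes it was 0.19 and includes the low replicate 1, so this is a loose criterion and no measure of stability. Several signs turned, none of them past the threshold, including Nkx6-2 (0.18 as reported) and Cldn11 (0.09 as reported). Mbp was at -0.00018 with RLE scaling and by DESeq2, -0.010 by limma-voom, -0.0095 with the replicate block, -0.018 with the GC offset, -0.028 with both and -0.086 without replicates 2 and 3. Fa2h was at 0.0019 with upper-quartile scaling. With the GC offset, Cspg4 was at -0.0080, Lhfpl3 at 0.0052, Olig1 at -0.078, Olig2 at -0.046, Myrf at -0.018, Mag at -0.075 and Opalin at 0.0043. With the replicate block and the GC offset, Cspg4 was at -0.0094, Olig1 at -0.082, Olig2 at -0.052, Myrf at -0.029 and Mag at -0.089. Without replicates 2 and 3, Olig1 was at -0.019, Olig2 at -0.053, Mag at -0.067, Cldn11 at -0.0495, Trf at -0.020 and Nkx6-2 at -0.056. Without overexpression replicate 1 and wild-type replicate 2, Mog was at 0.014, Cnp at 0.025, Opalin at 0.041 and Fa2h at 0.057.

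Over the alternatives that leave out 1 library, or both named above, the sign also turned for Olig1 (-0.028 to 0.094), Enpp6 (-0.037 to 0.113), Myrf (-0.00098 to 0.18), Mbp (-0.051 to 0.10), Mobp (-0.12 to 0.044), Mog (-0.11 to 0.080), Mag (-0.047 to 0.13), Cnp (-0.090 to 0.082), Opalin (-0.10 to 0.041), Car2 (-0.11 to 0.036), Fa2h (-0.054 to 0.098) and Gpr37 (-0.11 to 0.033). The cause was not tested.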
